A study of Mus musculus with 34 samples.

Results

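The 35 imprinted genes described here were chosen by symbol, by a rule that uses no measured value, from a list drawn up with earlier results of these data known. All 35 were found in the expression tables of single mouse embryos. The zygote and late 2-cell tables listed 49686 genes and that of blastocysts held 51734. Of the 35 genes, 24 are known to be expressed from the paternal allele and 11 from the maternal allele in at least some mouse tissues. The allele of origin was not measured in these embryos, so "paternally expressed" and "maternally expressed" below name the known class of a gene and not an allele seen in the reads.

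Zygotes received mRNA for wild-type CHK1, the checkpoint kinase that holds cells before mitosis, or for CHK1 carrying the R442Q substitution. The 34 libraries each held 1 embryo. The WT group had 5 zygotes, 4 late 2-cell embryos and 7 blastocysts, and the R442Q group had 6, 5 and 7. All blastocysts of both genotypes grew in medium with 30 nM CHK1 inhibitor, whereas the zygotes and late 2-cell embryos had no inhibitor. The WT group is therefore an injected group that overexpresses wild-type CHK1, and uninjected embryos were not analysed here. Age and strain of the embryos were not given in the sources used here.

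Imprinted genes carry parental marks that are set in the germ line and survive the erasure of DNA methylation after fertilization. At most imprinted loci the mark is DNA methylation at a control region, where the zinc finger protein ZFP57 with TRIM28 keeps it during cleavage. At a smaller group, among them Slc38a4, Gab1, Sfmbt2 and Jade1, the maternal allele is silenced in the preimplantation embryo by histone H3 lysine 27 trimethylation inherited from the oocyte. Transcripts of imprinted genes in a zygote are mostly stored by the oocyte, and the embryo's own genome is the main source from the late 2-cell stage on.

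Promoter sequences are shown for 5 windows at the loci the results turn on: Snrpn (whose window Snurf shares) and Mcts2, which were near 0 in a single WT blastocyst, Slc38a4, which was high there, and Ube3a and Snhg14, which were both lower in R442Q zygotes. They come from RefSeq (GRCm38.p6), run from 250 bases before to 50 bases after a transcript start, and are written 5′ to 3′ on the gene's strand. Capitals mark TGCCGC or its reverse complement GCGGCA, the hexamer that ZFP57 binds when methylated. The windows are chr7:60005150-60005449 (minus strand, shared by Snrpn and Snurf), chr2:152686898-152687197 (plus strand, Mcts2), chr15:97055907-97056206 (minus strand, Slc38a4), chr7:59228500-59228799 (plus strand, Ube3a) and chr7:60450128-60450427 (minus strand, Snhg14, also listed as a start of Snrpn).
Snrpn and Snurf: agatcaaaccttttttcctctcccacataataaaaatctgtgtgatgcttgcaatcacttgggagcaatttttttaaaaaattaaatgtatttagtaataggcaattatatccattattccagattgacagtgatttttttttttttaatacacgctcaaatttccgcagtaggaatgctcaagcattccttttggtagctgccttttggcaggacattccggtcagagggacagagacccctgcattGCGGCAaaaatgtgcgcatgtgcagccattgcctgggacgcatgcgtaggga
Mcts2: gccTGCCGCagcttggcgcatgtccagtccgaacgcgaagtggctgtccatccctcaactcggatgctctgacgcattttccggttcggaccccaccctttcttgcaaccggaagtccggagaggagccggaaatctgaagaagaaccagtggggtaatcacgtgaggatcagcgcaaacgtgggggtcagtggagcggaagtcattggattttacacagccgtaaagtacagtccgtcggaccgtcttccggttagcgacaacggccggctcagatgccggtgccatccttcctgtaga
Slc38a4: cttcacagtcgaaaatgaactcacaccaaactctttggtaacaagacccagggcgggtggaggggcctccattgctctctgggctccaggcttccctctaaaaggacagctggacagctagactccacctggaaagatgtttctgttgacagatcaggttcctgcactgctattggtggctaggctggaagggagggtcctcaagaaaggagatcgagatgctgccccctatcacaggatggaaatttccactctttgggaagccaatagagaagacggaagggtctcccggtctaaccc
Ube3a: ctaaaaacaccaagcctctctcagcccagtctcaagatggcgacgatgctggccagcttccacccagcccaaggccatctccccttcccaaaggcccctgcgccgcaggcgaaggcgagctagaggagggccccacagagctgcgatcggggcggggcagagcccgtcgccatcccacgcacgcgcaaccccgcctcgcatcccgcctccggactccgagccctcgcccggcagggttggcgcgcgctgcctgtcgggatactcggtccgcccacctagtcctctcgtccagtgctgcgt
Snhg14: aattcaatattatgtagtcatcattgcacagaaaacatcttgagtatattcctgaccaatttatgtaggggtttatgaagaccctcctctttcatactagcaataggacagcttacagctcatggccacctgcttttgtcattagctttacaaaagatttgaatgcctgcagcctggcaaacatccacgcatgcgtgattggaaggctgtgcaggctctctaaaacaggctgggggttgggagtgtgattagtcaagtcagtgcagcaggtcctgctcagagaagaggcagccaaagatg
The RefSeq start of Snhg14 used here lies upstream of its GENCODE span, which is given below. Of the windows shown, the first Snrpn window and that of Mcts2 each held 1 match, and the other 3 held none. RefSeq lists 4 windows for Snrpn, of which only the first one shown held the hexamer. Windows were found for 29 of the 35 genes. Counting an interval shared by several genes once, 11 of 48 windows (22.9%) held the hexamer on either strand, against 11.6% of the 32817 distinct windows of all genes. The hexamer was in 9 of the 35 windows of paternally expressed genes (25.7%), 2 of them Mest windows only 3 bases apart, and in 2 of the 13 of maternally expressed genes (15.4%). The 48 windows held a median of 14 CpG dinucleotides, against 7.0 over all windows. A match is a run of letters and does not show that the factor was bound.

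Total estimated counts per embryo were 7183632 to 11296522 (zygotes) and 5727956 to 8916343 (late 2-cell), and the depth of the blastocyst libraries, given only as FPKM, is unknown. Levels within a stage are given as CPM, the estimated count relative to the embryo's total count, for the first 2 stages and as FPKM, which is also scaled by transcript length, for blastocysts. A total of 3 counts, taken as the detection floor, equals 0.266 to 0.418 CPM in zygotes and 0.337 to 0.524 CPM in late 2-cell embryos, and covers counting error only. Stage markers separated the blastocysts from the earlier stages: the 8 oocyte-derived markers summed to 5937 FPKM or more in every zygote and to at most 4.54 FPKM in every blastocyst, and all 6 trophectoderm and 8 inner cell mass markers averaged 1 FPKM or more in both blastocyst groups. They did not fully separate zygotes from late 2-cell embryos: the oocyte-derived markers reached 7090 FPKM in an R442Q late 2-cell embryo, and the 7 late 2-cell markers reached 248 FPKM in an R442Q zygote, above the 104 FPKM of the lowest WT late 2-cell embryo. Nothing in the labels says that the embryos of a group came from separate litters, so p-values measure the spread between these embryos. Blastocyst libraries that stood apart were WT replicate 2, in which several paternally expressed genes were near 0, and R442Q replicate 7, which had the fewest genes at 1 FPKM or more (8189, against 9852 to 12191 in the other 13). Blastocyst results are given with and without WT replicate 2.

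The imprinted genes of highest level differed between the 3 stages. A median of 1 FPKM or more was reached by 16 of 35 genes in zygotes, 21 in late 2-cell embryos and 20 in blastocysts, and 10 FPKM or more by 7, 10 and 10. In zygotes the highest means were those of Gnas, the stimulatory G protein alpha subunit gene (83.1 FPKM, range 50.3 to 133), Mest, which encodes a hydrolase-like protein (72.7, 48.5 to 99.0), Snhg14, the long host transcript of small nucleolar RNAs at the Prader-Willi locus (57.1, 8.19 to 216), and Ube3a, a ubiquitin ligase gene (36.2, 18.02 to 63.8; n = 11 embryos each). The ranges of the 4 genes overlapped. Snhg14 spanned the widest range of the 4, and its lowest values were those of R442Q embryos. These means pool both genotypes, and the order differed between them. In WT zygotes Snhg14 averaged 102 FPKM, above Mest at 78.6. In R442Q zygotes Snhg14 averaged 19.6 and Ube3a 22.8 FPKM, both below Snurf at 30.3.

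In late 2-cell embryos, Phlda2, a maternally expressed regulator of placental growth, led at 511 FPKM (range 204 to 1153, n = 9). Mcts2, a retrogene copy of Mcts1 that lies in an intron of H13, followed at 105 (32.6 to 262), then Snurf at 72.9 (18.1 to 139) and Snrpn, a spliceosomal protein gene, at 66.9 (35.7 to 140). Phlda2 was above the other 3 in mean, and the ranges of Mcts2, Snurf and Snrpn overlapped. These means pool both genotypes. In WT embryos Snhg14 averaged 90.7 FPKM, above Mcts2 (63.6), Snurf (58.6) and Snrpn (48.0). In R442Q embryos Snhg14 averaged 26.6 FPKM, below Mcts2 (139), Snurf (84.3) and Snrpn (81.9). Every 50-base stretch of the 216 exonic bases of Snurf also occurs in Snrpn, and its FPKM implied an effective length of a median 37.8 bases at this stage. Its FPKM rested on low counts: Snurf had 0.605 to 5.37 CPM in late 2-cell embryos, against 64.7 to 246 CPM for Snrpn. H19, a maternally expressed noncoding RNA, was listed at 0 in all 9 late 2-cell embryos.

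In blastocysts, Slc38a4, an amino acid transporter gene, led at a mean of 134 FPKM (range 44.2 to 202, n = 14), followed by Snhg14 at 99.9 (47.6 to 180), Snrpn at 97.1 (0.53 to 139) and Snurf at 96.8 (0 to 173). The ranges of these 4 overlapped, and Snrpn and Snurf reached values near 0 that Slc38a4 and Snhg14 did not. These means pool both genotypes. Slc38a4 averaged 153.6 FPKM against 84.1 for Snhg14 in WT, and 114.0 against 115.6 in R442Q blastocysts. The 4 genes with the H3K27 methylation imprint averaged 134 FPKM (Slc38a4), 16.5 (Jade1), 13.9 (Gab1) and 11.8 (Sfmbt2), against 0.628, 0.663, 0.174 and 0.0836 FPKM in zygotes. These tables were normalized separately, so the levels are set side by side and were not tested. Magel2, Dlk1 and Kcnq1 were listed at 0 in all 14 blastocysts. Of the 10 genes with a median of 10 FPKM or more in blastocysts, 9 were paternally expressed, against 4 of 7 in zygotes and 6 of 10 in late 2-cell embryos. Of all 35 genes, 24 are paternally expressed. The 9 include both Snrpn and Snurf, whose sequence lies within Snrpn, so they are not separate cases. Whether the share differed between stages was not tested.

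**Figure D1:**
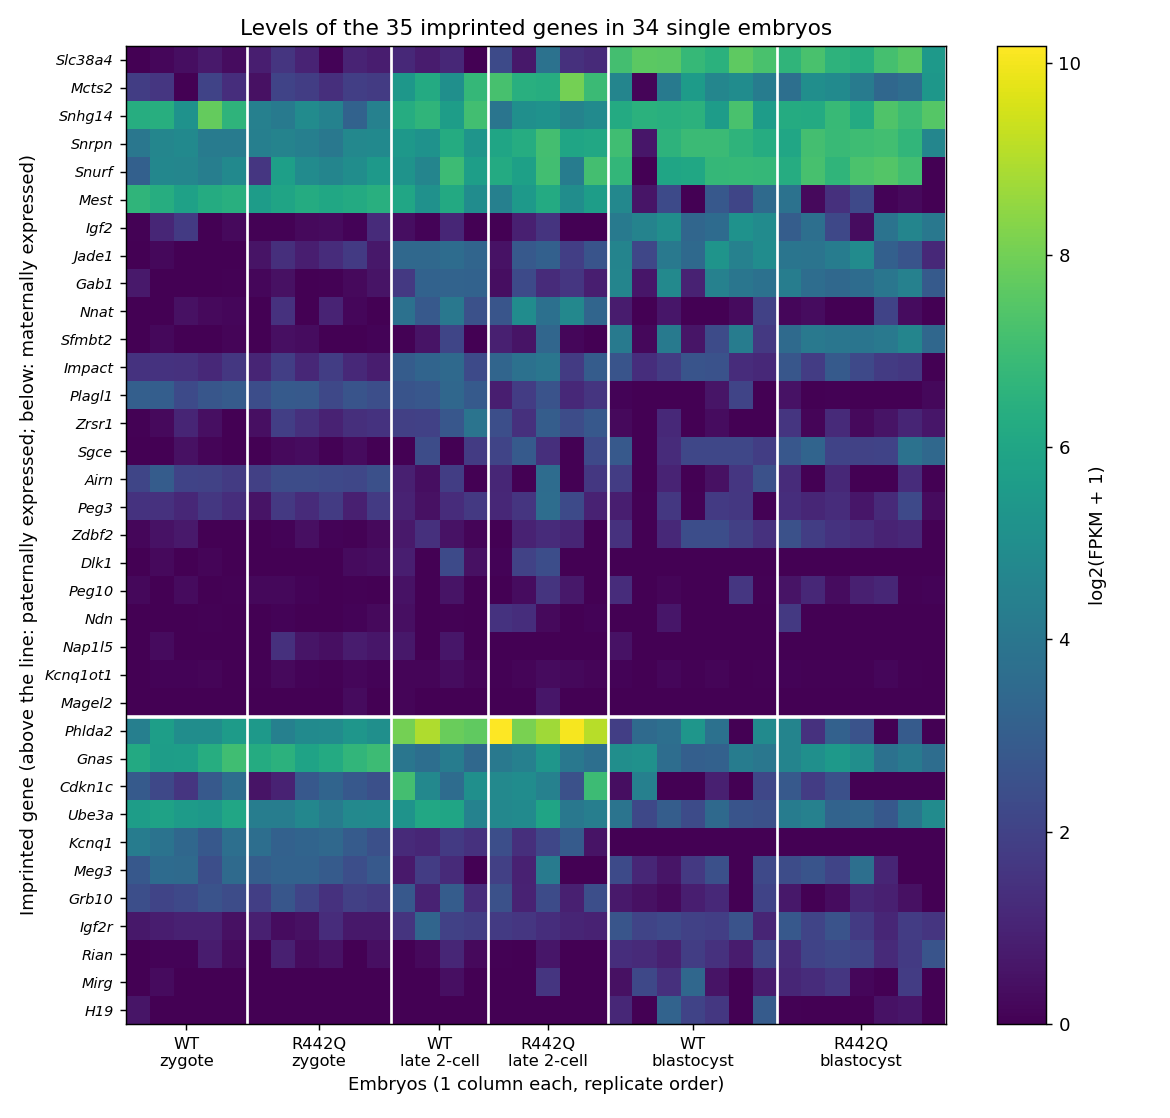
Levels of the 35 imprinted genes (rows) in 34 single embryos (columns, in replicate order within each group) as log2(FPKM + 1), with paternally expressed genes above the white line and maternally expressed genes below it. Slc38a4 is bright only in blastocysts (44.2 to 202 FPKM), Phlda2 is brightest in late 2-cell embryos (204 to 1153 FPKM), and the second WT blastocyst column is dark for Snrpn, Snurf and Mcts2.

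The comparison of R442Q with WT zygotes asked which of these transcripts differed within the first cell cycle. Snhg14 and Ube3a, the overlapping pair at the Prader-Willi and Angelman locus, were lower in R442Q zygotes, and Zrsr1, a retrogene for a splicing factor, was higher. These were 3 of the 18 imprinted genes that passed the filter on low counts (16.7%), against 13.2% of the 12420 genes tested (6.3% higher and 6.92% lower), so the share was near that of all genes. Without WT replicate 4 the count was 5. The median log2 fold change of the 18 was 0.056, against 0.006 over all genes. The other 17 imprinted genes did not pass the filter, and Zrsr1 passed it through its R442Q counts.

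Snhg14 (chr7:59307924-59975759, minus strand, GRCm38 with GENCODE M21 as for all gene spans below) stood at 42.4, 47.9, 19.6, 117 and 51.0 CPM in the 5 WT zygotes. In the 6 R442Q zygotes the lowest was 4.84, the median 12.5 and the highest 19.54 CPM, so every R442Q embryo lay below every WT embryo, the closest of which had 19.60 CPM. The mean went from 55.6 ± 36.5 to 12.1 ± 4.79 CPM (SD), or -2.09 ± 0.37 on the log2 scale (SE of the edgeR fit; adjusted p = 0.0017). Ube3a (chr7:59228750-59311536, plus strand) stood at 39.1, 41.5, 30.8, 28.7 and 46.1 CPM in WT and at 11.4 to 22.4 CPM (median 14.9) in R442Q zygotes. Its groups did not overlap either, and its log2 fold change was -1.12 ± 0.19 (edgeR adjusted p = 0.00141). Groups did not overlap for 9.39% of all genes tested.

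Snhg14 and Ube3a run toward each other on opposite strands and share 1803 exonic bases at their ends. In the 50-base stretches of the annotated exons, 7.41% of those of Snhg14 occur in reverse in Ube3a, and 8.38% of those of Ube3a in Snhg14. The FPKM of Snhg14 implied an effective length of a median 580 bases in zygotes, against 26093 annotated exonic bases, and that of Ube3a 677 bases, against 20626. Where in each locus the reads fell was not examined. Whether strand was used in counting is not given, and without it reads from the shared bases cannot be told apart. The ratio of Snhg14 to Ube3a CPM had a median of 1.11 in WT (0.637 to 4.09) and 0.873 in R442Q zygotes (0.216 to 1.30), with overlapping ranges.

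Zrsr1 (chr11:22972005-22976496, plus strand, within the span of Commd1) stood at 0.124, 0.460, 1.39, 0.541 and 0 CPM in WT zygotes. The R442Q zygotes had 1.45 to 5.42 CPM (median 2.07), all above the highest WT embryo. In estimated counts these were 0 to 11 in WT and 10.4 to 39.8 in R442Q. Zrsr1 thus passed the filter (minimum count of 10) through the group where it was high. The log2 fold change was 2.62 ± 0.69 (edgeR adjusted p = 0.0193). Without WT replicate 3 the log2 fold change was 3.42. The call was lost without WT replicate 1 (adjusted p = 0.0536) or WT replicate 2 (0.0504), and in the fit of all 4 early groups (0.0518). Zrsr1 shares 412 exonic bases with Commd1 on the opposite strand, and Commd1 fell, from 60.6 ± 9.69 to 35.8 ± 6.01 CPM (log2 fold change -0.64 ± 0.15; edgeR adjusted p = 0.00885).

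Jade1, a chromatin reader gene that missed the zygote filter, showed the same pattern at low counts. It had 0, 0.690, 0, 0 and 0 CPM in the 5 WT zygotes and 0.835 to 3.68 CPM (median 1.95) in the 6 R442Q zygotes, which were all above the WT embryos. With no filter on low counts its log2 fold change was 3.87 ± 0.90 (edgeR adjusted p = 0.00201), and Nap1l5, a retrogene for a nucleosome assembly protein, was also called (3.92 ± 1.24, adjusted p = 0.0381). The size of both folds rests on a WT group with counts in 1 of 5 embryos. For Nap1l5, which also missed the filter, that embryo had 2 counts, below the detection floor, and R442Q replicate 1 was at 0. The size of the Nap1l5 fold is therefore not determined. Of the 7 late 2-cell markers, 6 (Zscan4c, Zscan4d, Zscan4f, Gm4340, Usp17la and Zfp352) were called higher in R442Q zygotes by edgeR. Over all genes tested, 6.3% were called higher and 6.92% lower. The 7 markers summed to 22.8 to 68.6 FPKM in WT and 65.3 to 248 FPKM in R442Q, with none at 0 in every embryo. The 12 cumulus markers summed to 21.2 to 24.01 FPKM in WT and 14.5 to 19.2 FPKM in R442Q zygotes, with 2 of 12 averaging 1 FPKM or more, Amh at 0 in every zygote, and 0 of the 4 tested called by edgeR (1 at an unadjusted p under 0.05). The sums did not overlap between genotypes, nor did the values of 1 of these 4 markers. The 8 oocyte-derived markers summed to 7094 to 9037 FPKM in WT and 5937 to 7927 FPKM in R442Q zygotes, where Mos and Zp3 fell and Btg4 rose. The part of these lists in the zygote results, Snhg14 and Ube3a included, was not tested.

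For 4 other members of high level the genotype difference missed the threshold. Gnas averaged 123 ± 54.2 CPM in WT and 143 ± 37.3 in R442Q zygotes (log2 fold change 0.32 ± 0.24), Mest 126 ± 26.2 and 101 ± 23.2 (-0.21 ± 0.17), Snrpn 36.7 ± 8.83 and 39.1 ± 7.504 (0.22 ± 0.17) and Phlda2 20.5 ± 7.29 and 18.5 ± 4.79 (-0.02 ± 0.25). The edgeR adjusted p-values of these 4 were 0.425 to 0.979.

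**Figure D2:**
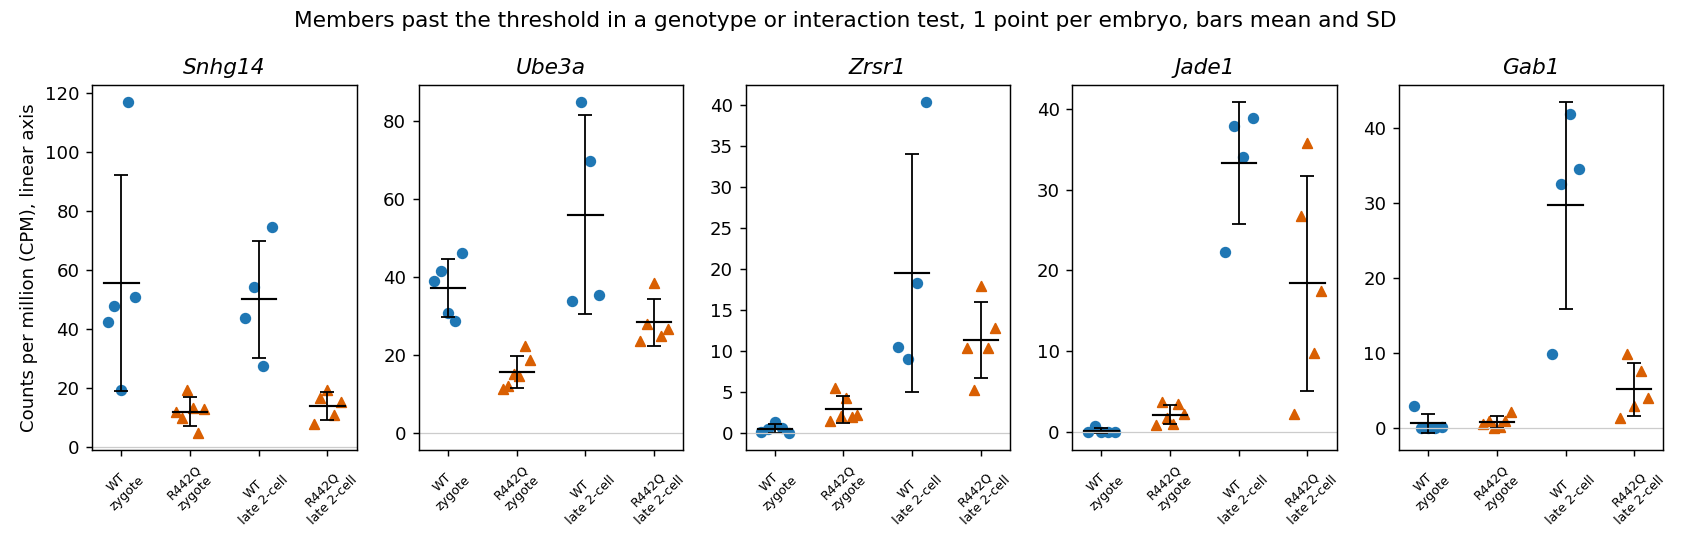
CPM on a linear axis for Snhg14, Ube3a, Zrsr1, Jade1 and Gab1 in single WT (circles) and R442Q (triangles) zygotes and late 2-cell embryos; lines and bars give the mean and SD. Snhg14 in R442Q embryos stays at or below 19.54 CPM at both stages, while WT embryos reach 117 CPM in zygotes and 74.7 CPM in late 2-cell embryos.

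In late 2-cell embryos, when the embryo's genome is active, Snhg14 and Gab1 were lower with R442Q and no imprinted gene was called higher. They were 2 of the 26 tested (7.69%), against 4.18% of 13883 genes (1.22% higher and 2.95% lower). Leaving out 1 embryo gave 0 calls for WT replicate 2, WT replicate 4 or R442Q replicate 4, and 1 for WT replicate 3 or R442Q replicates 1, 3 or 5. The median log2 fold change of the 26 was 0.46, against 0.07 over all genes. Snhg14 stood at 43.9, 54.4, 27.6 and 74.7 CPM in the WT embryos and at 7.87, 16.9, 19.4, 10.95 and 15.3 CPM in the R442Q embryos. The groups did not overlap, as for 12.4% of all genes, and the log2 fold change was -1.77 ± 0.41 (edgeR adjusted p = 0.0271). That call was lost without WT replicate 2 (adjusted p = 0.0898), WT replicate 4 (0.116) or R442Q replicate 4 (0.0507).

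Gab1 (chr8:80764438-80880519, minus strand), a docking protein gene for receptor tyrosine kinases, stood at 9.87, 32.5, 41.8 and 34.5 CPM in WT and at 1.38, 9.95, 2.97, 7.70 and 4.04 CPM in R442Q late 2-cell embryos. WT replicate 1 lay just under the highest R442Q embryo, and the other 3 WT embryos lay above all of them. The log2 fold change was -2.44 ± 0.62 (edgeR adjusted p = 0.0422). Of the 9 fits that each left out 1 embryo, 7 gave Gab1 an adjusted p above 0.05, the highest being 0.125 with WT replicate 2 removed. The call was also lost in the fit of all 4 early groups (0.0766) and with limma on log2(FPKM + 1) (0.105).

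Ube3a, whose R442Q values were low in zygotes, stood at 33.8, 85.1, 69.9 and 35.5 CPM in WT and at 23.6, 28.1, 38.6, 24.95 and 26.8 CPM in R442Q late 2-cell embryos. R442Q replicate 3 lay above 2 of the WT embryos, and the log2 fold change of -0.91 ± 0.37 missed the threshold (edgeR adjusted p = 0.172). The ratio of Snhg14 to Ube3a CPM had a median of 0.969 in WT and 0.502 in R442Q embryos, with overlapping ranges.

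Phlda2, Mcts2 and Snrpn had larger means in R442Q late 2-cell embryos without passing the test, and Mest a smaller one (99.7 CPM in WT and 83.8 in R442Q, log2 fold change -0.16 ± 0.39). Phlda2 stood at 156, 287, 135 and 107 CPM in WT and at 627, 155, 226, 555 and 302 CPM in R442Q embryos (log2 fold change 1.24 ± 0.46; edgeR adjusted p = 0.137). Mcts2 stood at 31.2, 54.6, 24.7 and 80.1 CPM in WT and at 106, 61.8, 55.6, 190 and 89.2 CPM in R442Q (1.17 ± 0.46; adjusted p = 0.164). Snrpn stood at 76.5, 64.7, 141 and 69.7 CPM in WT and at 109, 140, 246, 112 and 121 CPM in R442Q (0.80 ± 0.33; adjusted p = 0.186). In each of the 3 genes at least 1 WT embryo lay above an R442Q embryo.

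The 12 cumulus cell markers summed to 6.74 to 20.2 FPKM in WT and 18.8 to 61.5 FPKM in R442Q embryos, with 2 of 12 averaging 1 FPKM or more and Amh, Inhba, Lhcgr and Fshr at 0 in every R442Q embryo. Of the 3 that could be tested edgeR called 0 (1 at an unadjusted p under 0.05), and the groups overlapped for all 3. Late 2-cell markers summed to 104 to 1318 FPKM in WT and 645 to 3213 in R442Q, and edgeR called 0 of 7 (5 at an unadjusted p under 0.05). The 8 oocyte-derived markers summed to 1394 to 3465 FPKM in WT and 1790 to 7090 in R442Q, and edgeR called 0 of 8 (2 at an unadjusted p under 0.05). Over all genes at this stage 4.18% were called and 21% had an unadjusted p under 0.05. The part of these lists in the late 2-cell results was not tested.

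**Figure D3:**
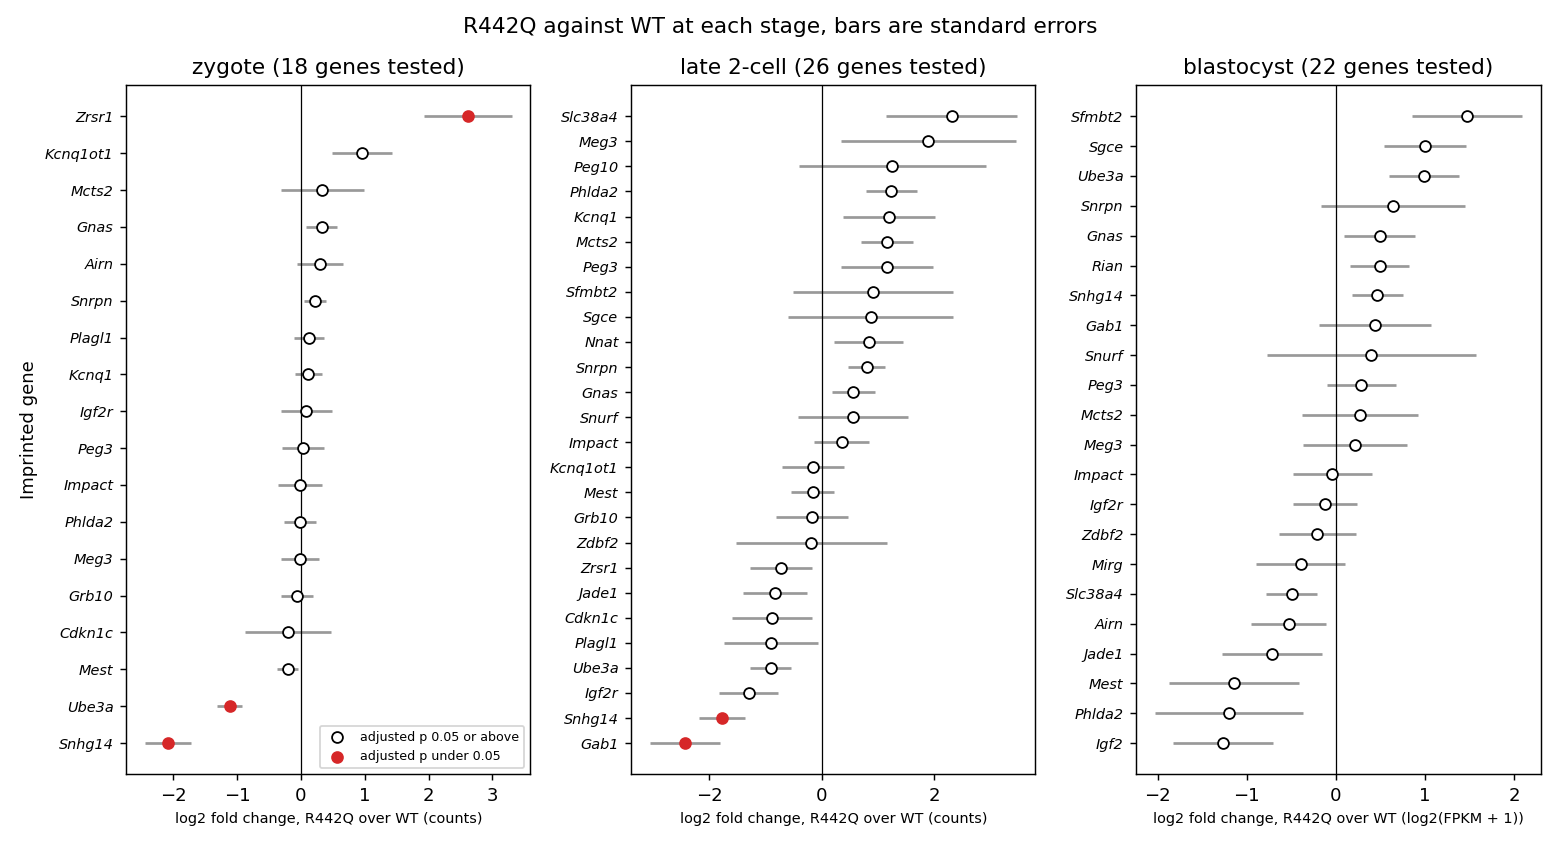
Log2 fold change of R442Q over WT for the imprinted genes tested at each stage, with standard errors; filled points had an adjusted p under 0.05. Of 18 genes in zygotes, 3 are filled, of 26 in late 2-cell embryos 2, and of 22 in blastocysts none.

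From the zygote to the late 2-cell stage, 12 imprinted genes rose and 3 fell in WT embryos, and 11 rose and 2 fell in R442Q embryos, of 27 tested in each. Among all 16199 genes tested, 36.2% rose and 25% fell in WT (61.2% in all), and 35.3% rose and 29.8% fell in R442Q (65.1%). The imprinted genes called were 55.6% and 48.1%, below those shares. Of the 27, 9 had failed the filter among zygotes and entered through their late 2-cell counts, and 4 of these (Gab1, Jade1, Nnat and Sgce) rose in both genotypes. Of the other 18, 8 rose and 3 fell in WT, and 7 rose and 2 fell in R442Q. Of the 19 paternally expressed genes tested, 9 rose in WT and 8 in R442Q, and the rest missed the threshold. Of the 8 maternally expressed genes, 3 rose and 3 fell in WT, and 3 rose and 2 fell in R442Q. All 9 genes that entered through their late 2-cell counts are paternally expressed, so these counts by class depend on the filter. Of the other paternally expressed genes, Impact, Kcnq1ot1, Mcts2, Snrpn and Zrsr1 rose in WT. The same genes except Kcnq1ot1 rose in R442Q.

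The same 10 genes rose in both genotypes: Snrpn, Impact, Zrsr1, Mcts2, Nnat, Cdkn1c, Phlda2, Sgce, Gab1 and Jade1. Kcnq1, a potassium channel gene, and Gnas fell in both. The retrogene Mcts2 was at 0 to 2.30 CPM in WT zygotes and at 24.7 to 80.1 CPM in WT late 2-cell embryos (log2 fold change 5.07 ± 0.61; edgeR adjusted p = 2.1e-07), and its change in R442Q was 5.80 ± 0.57. Its host gene H13 fell, from 292 ± 27.3 to 54.4 ± 11.3 CPM in WT (edgeR adjusted p = 5.91e-06). Nnat, which lies within Blcap and encodes a small membrane proteolipid, had at most 3 counts, the detection floor, in every WT zygote and 4.76 to 16.1 CPM in WT late 2-cell embryos. In R442Q it had 0 to 1.77 CPM in zygotes and 5.35 to 29.3 CPM in late 2-cell embryos. Nnat also failed the filter among zygotes, so no fold is given.

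Among the growth regulators, Phlda2 rose by 2.99 ± 0.40 (edgeR adjusted p = 9.1e-07) in WT and 4.16 ± 0.38 in R442Q. Cdkn1c, a cyclin-dependent kinase inhibitor gene, rose by 3.36 ± 0.85 and 2.55 ± 0.76. Without WT late 2-cell replicate 1, at 164 CPM against 18.5 to 38.1 in the other 3, the WT rise was 2.16, and without R442Q late 2-cell replicate 5, at 82.9 CPM against 5.69 to 22.3, the R442Q rise was 1.74. Igf2r, the receptor that clears IGF2, rose in WT (2.54 ± 0.53, adjusted p = 0.000274) and missed the threshold in R442Q (1.06 ± 0.47, adjusted p = 0.0513). Without WT late 2-cell replicate 2, at 82.5 CPM against 17.5 to 26.9 in the other 3, the WT rise was 1.61. The difference between these changes did not pass the interaction test (-1.48 ± 0.70, adjusted p = 0.195). Gnas stood at 80.8 to 213 CPM in WT zygotes and 19.1 to 28.6 CPM in WT late 2-cell embryos, a log2 fold change of -2.53 ± 0.33, and fell by 2.37 on the log2 scale in R442Q. Calls of Kcnq1ot1 and Meg3 (WT only) and of Ube3a (R442Q only) were lost in 11, 5 and 9 of the 20 fits without 1 embryo, and those of Sgce in WT and Kcnq1 in R442Q in 4 and 2.

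The change between stages differed between genotypes for Jade1 and Zrsr1 by the interaction test, 2 of the 27 tested (7.41%) against 10.1% of all genes (3.07% higher and 7.05% lower). The count was 1 without WT zygote replicate 2, R442Q zygote replicate 2 or WT late 2-cell replicate 4. Jade1 rose to 22.3, 37.9, 34.1 and 39.0 CPM in WT late 2-cell embryos and to 2.24, 26.7, 35.8, 9.71 and 17.5 CPM in R442Q embryos, from the zygote levels given above. Its log2 change was 7.64 ± 0.94 in WT and 2.88 ± 0.65 in R442Q, a difference of -4.76 ± 1.09 (edgeR adjusted p = 0.00713). Jade1 failed the filter among zygotes and was tested through its late 2-cell counts. The size of these values rests on WT zygote replicate 2, the only WT zygote with Jade1 counts: without it the WT change was 10.8 and the difference -7.97, fitted against a WT zygote group at 0. Zrsr1 rose to 10.4, 9.001, 18.3 and 40.5 CPM in WT and to 10.4, 5.24, 17.95, 10.4 and 12.8 CPM in R442Q late 2-cell embryos. The changes were 5.19 ± 0.77 and 1.78 ± 0.61, a difference of -3.41 ± 0.94 (adjusted p = 0.0228), which was lost in 3 of 20 fits without 1 embryo (up to 0.0802, without WT late 2-cell replicate 4, where the difference was -2.74). Without WT zygote replicate 3 the difference was -4.23. At the late 2-cell stage alone neither gene differed between genotypes beyond the threshold (Jade1 -0.83 ± 0.57, adjusted p = 0.445; Zrsr1 -0.73 ± 0.56, adjusted p = 0.499). The interaction missed the threshold for Snhg14 (0.23 ± 0.58, adjusted p = 0.854), Ube3a (0.13 ± 0.41, 0.894) and Gab1 (-2.97 ± 1.33, 0.166).

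**Figure D4:**
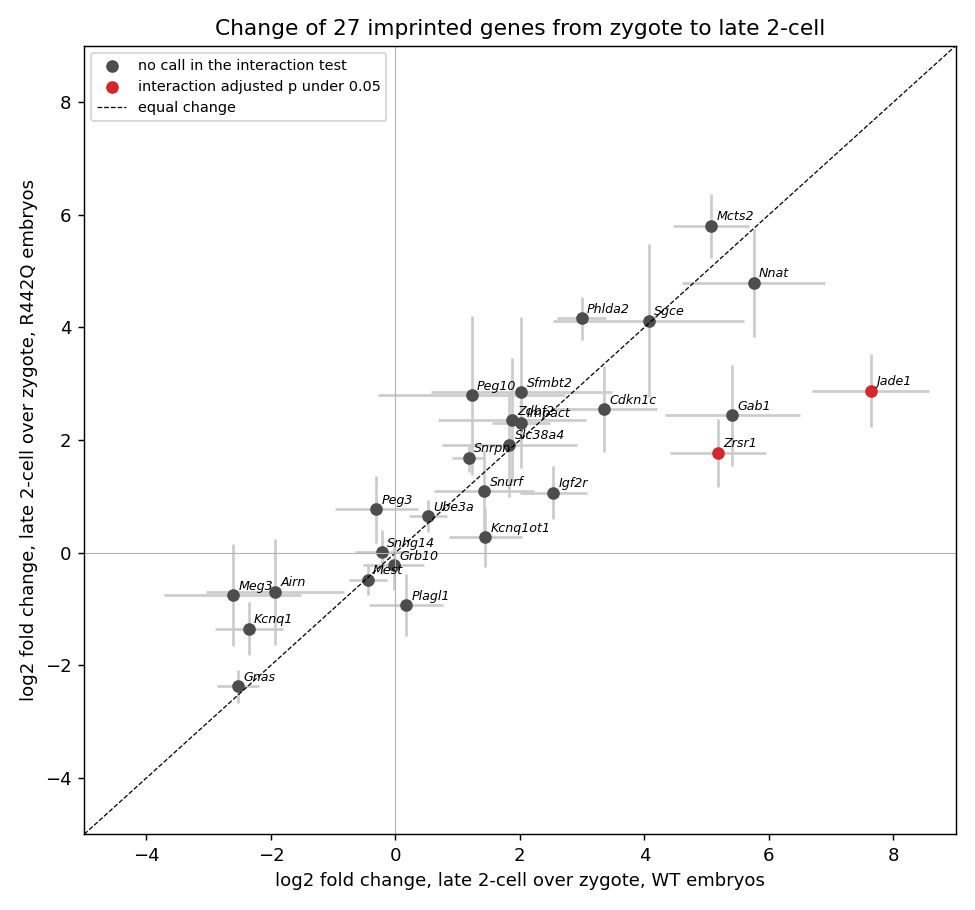
Log2 fold change from zygote to late 2-cell in WT (x axis) and R442Q (y axis) embryos for 27 imprinted genes, with standard errors; the dashed line marks equal change. Jade1 (7.64 in WT, 2.88 in R442Q) and Zrsr1 (5.19 and 1.78), the 2 genes with an interaction call, lie furthest below the line together with Gab1. Among zygotes Jade1 and Gab1 failed the filter on low counts, and Zrsr1 passed it through its R442Q counts.

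In blastocysts under CHK1 inhibitor, no imprinted gene passed the threshold between R442Q and WT. Limma called 0 of the 22 tested, with 4 at an unadjusted p under 0.05, against 1 of 11297 genes (0.00885%) adjusted and 7.4% unadjusted. Those 4 were Ube3a (log2(FPKM + 1) difference 0.99 ± 0.39; adjusted p = 0.531), Sfmbt2, a polycomb-like gene (1.47 ± 0.62; 0.597), Igf2, the fetal growth factor gene (-1.26 ± 0.56; 0.636), and Sgce, which encodes a sarcoglycan (0.999 ± 0.456; 0.648). Ube3a had a lowest, median and highest of 3.63, 5.18 and 14.2 FPKM in WT and 5.93, 14.6 and 29.3 in R442Q blastocysts, so the higher median was in R442Q here and in WT in zygotes. Igf2 had 9.15, 22.6 and 35.7 FPKM in WT and 0.27, 12.2 and 23.4 in R442Q. The groups overlapped for all 22 genes, and for all but 0.416% of the genes tested.

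Snhg14, lower with R442Q at both earlier stages, had 47.6, 83.8 and 153 FPKM (lowest, median, highest) in WT and 72.9, 115 and 180 in R442Q blastocysts (difference 0.47 ± 0.29; limma adjusted p = 0.785). Slc38a4 had 88.5, 151 and 202 FPKM in WT and 44.2, 101 and 184 in R442Q (-0.50 ± 0.29; adjusted p = 0.768). Gab1 had 0.53, 14.8 and 26.99 FPKM in WT and 6.31, 11.4 and 21.2 in R442Q, and Jade1 3.49, 20.9 and 37.4 against 1.23, 14.1 and 29.2. The groups overlapped for each of these genes.

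WT blastocyst replicate 2 held the lowest values of several paternally expressed genes. Its Snrpn level was 0.53 FPKM, against 24.6 to 139 in the other 13 blastocysts, and its Mcts2 level 0.10 FPKM, against 9.65 to 46.6. Gab1 (0.53, others 0.96 to 26.99), Sfmbt2 (0.15, others 0.51 to 23.6), Sgce (0, others 1.36 to 13.3) and Peg3, a zinc finger gene (0.03, others 0.05 to 3.69), were also the lowest of the 14. Snurf and Zdbf2 were listed at 0 there, as in R442Q replicate 7. In all, 6 of the 14 paternally expressed genes with a median of 1 FPKM or more had their lowest value in WT replicate 2, against 7.36% of all genes tested. Of the 6 maternally expressed genes at that level, 1 (Ube3a, 3.63 FPKM) was lowest there. Among maternally expressed genes below that level, Cdkn1c had its highest value there (20.6 FPKM, others 0 to 6.12), while H19 and Kcnq1 were at 0.

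Not all paternally expressed genes were low in that embryo. Slc38a4 stood at 195 FPKM (others 44.2 to 202), Snhg14 at 89.5 (47.6 to 180) and Igf2 at 22.6 (0.27 to 35.7), each above the median of the others. Summed over all 24 paternally expressed genes, low ones included, WT replicate 2 had 314 FPKM and the other blastocysts 333 to 705. Without Slc38a4, Snhg14 and Igf2, removed after their values were seen, the sum was 6.85 FPKM there and 93.1 to 377 FPKM in the others. That choice enlarges the gap. Among genes with a median of 1 FPKM or more, all 6 maternally expressed genes reached 1 FPKM in WT replicate 2, against 5 of the 14 paternally expressed genes. H13, the host of Mcts2, stood at 54.0 FPKM (others 11.4 to 85.2), and Mcts1, the gene Mcts2 was copied from, at 62.6 (others 13.03 to 55.5). The library had 11685 genes at 1 FPKM or more, within the range of the other blastocysts, and the highest sum of trophectoderm markers (24290 FPKM, others 1249 to 12870). The part of cell composition in these values was not tested, and in a whole embryo fewer cells of a type and less RNA per cell cannot be told apart.

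R442Q replicate 7 had 9 of the 14 paternally expressed genes at 1 FPKM or more, and 29.2% of all genes tested had their lowest value there. Snrpn was at 24.6 FPKM and Mcts2 at 40.4 FPKM in that embryo. Without WT replicate 2, the median difference of the imprinted genes between R442Q and WT blastocysts went from 0.24 over 22 genes to -0.14 over 21. The differences of Snrpn (0.64 to -0.24), Mcts2 (0.27 to -0.39), Snurf (0.40 to -0.54) and Gab1 (0.44 to -0.01) changed sign, and that of Sfmbt2 went from 1.47 to 1.09. Limma still called 0 genes of the 21, with 1 at an unadjusted p under 0.05 (Ube3a, 0.877 ± 0.405).

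**Figure D5:**
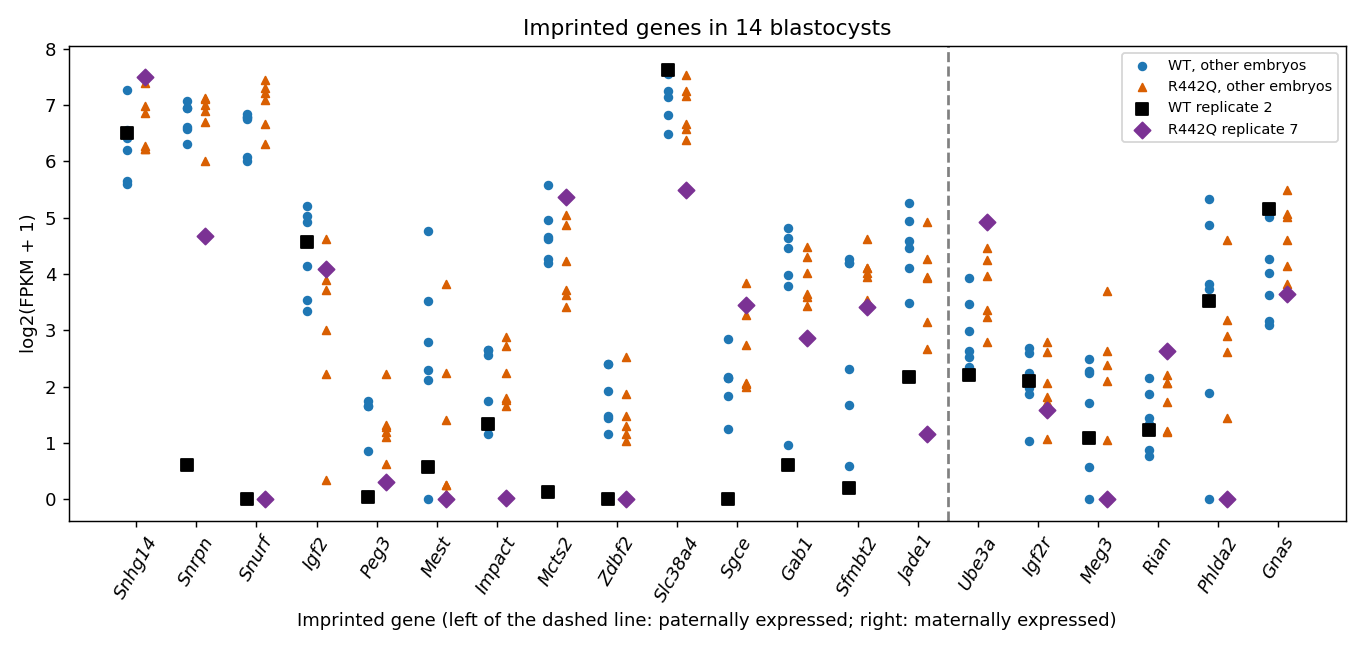
Log2(FPKM + 1) in each of 14 blastocysts for the imprinted genes with a median of 1 FPKM or more, paternally expressed to the left of the dashed line and maternally expressed to the right. WT replicate 2 (black squares) lies near 0 for Snrpn (0.53 FPKM), Snurf and Mcts2 (0.10 FPKM) and among the highest for Slc38a4 (195 FPKM); R442Q replicate 7 is shown as diamonds.

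Among 23 factors that set or keep imprints, 4 of the 22 tested changed in R442Q zygotes (18.2%, against 13.2% of all genes). Dnmt1, the maintenance DNA methyltransferase gene, fell from a mean of 582 to 218 CPM (log2 fold change -1.29 ± 0.17; edgeR adjusted p = 0.000272). Setdb1, the H3K9 methyltransferase gene (-0.71 ± 0.12; 0.00135), and Trim28, the corepressor that ZFP57 recruits (-0.95 ± 0.30; 0.0426), fell as well. Dppa3, which protects the maternal genome from demethylation, rose (0.44 ± 0.08; 0.00191). In late 2-cell embryos 1 of 23 was called (4.35%, against 4.18% of all genes), Zfp57, which was at a mean of 203 CPM in WT and 429 in R442Q (1.19 ± 0.31; adjusted p = 0.0464). From zygote to late 2-cell, 15 of the 23 fell and 4 rose in each genotype, where 25% of all genes fell and 36.2% rose in WT and 29.8% and 35.3% in R442Q. Zfp57 went from 4330 to 203 CPM in WT and from 4213 to 429 in R442Q. In blastocysts limma called 0 of 20 (1 at an unadjusted p under 0.05).

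A second list held 33 other imprinted genes. In zygotes 3 of 16 were called (18.8%, against 13.2% of all genes), Commd1 as above, Nap1l4 (-0.52 ± 0.14; edgeR adjusted p = 0.017) and Trappc9 (0.50 ± 0.12; 0.0131). In late 2-cell embryos 1 of 22 was called (4.55%, against 4.18%), Tssc4 (-1.82 ± 0.47; adjusted p = 0.0431), and in blastocysts limma called 0 of 13 (0 at an unadjusted p under 0.05). The interaction test called 3 of 23 (13%, against 10.1% of all genes), all with a lower genotype difference in late 2-cell embryos than in zygotes, a direction called for 7.05% of all genes against 3.07% for the other. They were Tssc4 (-1.89 ± 0.56; adjusted p = 0.0339), Th (-1.36 ± 0.39; 0.0291) and Copg2 (-2.36 ± 0.72; 0.0376).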

How the data were processed

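Single-embryo cDNA was made by SMART-seq2 and tagmented for Illumina sequencing, per the labels' protocols. The submitters' processing notes name RSEM and mm10; aligner, annotation and use of strand were not given in the sources used here. The authors deposited estimated counts for zygotes and late 2-cell embryos and FPKM for all 3 stages; the blastocyst table is FPKM only.

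Estimated counts were rounded and tested within each stage with edgeR 4.0.16 (TMM scaling, filterByExpr with a minimum count of 10, quasi-likelihood test). Stage changes and the interaction came from 1 fit of the 4 early groups. Blastocysts were tested with limma 3.58.1 (trend) on log2(FPKM + 1), for genes at 1 FPKM or more in at least 7 embryos; these differences understate changes of low genes. All p-values were Benjamini-Hochberg adjusted over all genes tested, with a threshold of 0.05. Scripts were tested on simulated counts. Alternatives were DESeq2 1.42.0, other scalings, filters, pseudocounts (0.1 FPKM), a replicate block, and leaving out each embryo.

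The members and lists were chosen with earlier results of these data known. Values per embryo are given for members past a threshold in a genotype or interaction test, for the 4 of highest mean FPKM per stage and for members overlapping those; of the other lists, up to 5 per stage are named by smallest p. Genes were located in GENCODE M21 (GRCm38), which held 35 of 35; its exons were also compared between genes in 50-base stretches.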

Additional observations from a re-analysis of the deposited data

Results flagged for a closer look

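The highest or lowest embryo stood far from the rest in 12 cases among 74 groups of values tested. The nominal rate by chance is about 1 group in 20. That rate need not hold for small, skewed groups, some with values of 0, so no excess over chance is read from it. In zygotes these were Gab1 at 2.97 CPM in WT replicate 1 and Jade1 at 0.690 CPM in WT replicate 2, where the other WT zygotes were at or near 0. In late 2-cell embryos they were Snrpn at 141 CPM in WT replicate 3 and, in R442Q replicate 3, Snrpn at 246 CPM and Slc38a4 at 23.6 CPM.

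In blastocysts the low value was Snrpn at 0.53 FPKM in WT replicate 2. The high values were Mest at 26.0 FPKM in WT replicate 1 and 13.1 FPKM in R442Q replicate 1, Phlda2 at 23.3 FPKM in R442Q replicate 1, Snhg14 at 153 FPKM in WT replicate 6 and Zrsr1 at 1.26 FPKM in WT replicate 3. R442Q replicate 7 stood low in the number of paternally expressed genes at 1 FPKM or more, with 9.

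The effect of genotype differed between the late 2-cell and zygote stages by the edgeR interaction test for Jade1 (-4.76 on the log2 scale) and Zrsr1 (-3.41). Jade1 failed the filter among zygotes and had counts in 1 of 5 WT zygotes. Without that embryo the value was -7.97, so its size is not well determined. Zrsr1 passed that filter through its R442Q counts, with 0 to 11 counts in WT zygotes.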

How the results depend on the processing

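For members that passed a threshold, 110 values kept direction and side of the threshold under other scalings, filters, tools and units and 5 lost the threshold; without 1 embryo, 605 kept both and 46 lost the threshold, and none of these called directions reversed. Among blastocyst differences that were not called, those of Snrpn, Mcts2, Snurf and Gab1 changed sign without WT replicate 2. With no filter on low counts, 5 members were called in zygotes. With limma on log2(FPKM + 1), 1 was called in late 2-cell embryos. Without 1 embryo each, the calls ran from 3 to 5 in zygotes, 0 to 2 in late 2-cell embryos, 0 to 0 in blastocysts, 12 to 16 and 12 to 17 for the stage change in WT and R442Q, and 1 to 3 for the interaction. The replicate block, which takes the replicate number as a factor, gave 0 calls in late 2-cell embryos and 1 in the interaction. Of single-member calls 26 kept the threshold under it and 9 lost it: Snhg14 and Gab1 in late 2-cell embryos, the Zrsr1 interaction, and the stage changes of Kcnq1ot1 and Sgce in WT and of Cdkn1c, Kcnq1, Sgce and Zrsr1 in R442Q. At no stage did every pair of embryos with the same number correlate above 0.1 in its deviations (correlations -0.057 to 0.063 in zygotes, -0.144 to 0.206 in late 2-cell embryos, -0.168 to 0.204 in blastocysts). The early embryos' numbers in the deposited column names differ in part from those of the titles, and pairs by those numbers gave -0.072 to 0.041 in zygotes and -0.144 to -0.059 in late 2-cell embryos, a check chosen after seeing the data. Neither numbering was taken to pair the embryos. In every zygote fit without 1 embryo Snhg14 and Ube3a stayed past the threshold, with adjusted p-values up to 0.00549 and 0.00501. Low counts limit 17 members in zygotes and 9 in late 2-cell embryos, which were filtered out, and the unknown depth limits the blastocysts.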

Other observations

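Single embryos held the highest value of many imprinted genes at once. R442Q late 2-cell replicate 3 had the highest CPM of the 9 embryos for 9 of the 26 imprinted genes tested (Snrpn, Meg3, Peg3, Peg10, Impact, Zdbf2, Slc38a4, Sfmbt2 and Gnas) and the lowest for none, whereas it was highest for 17.4% and lowest for 8.74% of all genes tested. R442Q zygote replicate 2 was highest of the 11 for 6 of 18 (Meg3, Peg3, Impact, Zrsr1, Mcts2 and Kcnq1ot1), against 9.28% of all genes. R442Q late 2-cell replicate 1 was lowest for 7 of 26, against 15.5% of all genes.

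In WT blastocyst replicate 2, genes that host or neighbour other members were within the range of the other 13 blastocysts. Commd1, which surrounds Zrsr1, stood at 261 FPKM (others 223 to 640, median 400.1), Blcap, which surrounds Nnat, at 0.42 (0.14 to 11.5, median 6.18), Herc3, which surrounds Nap1l5, at 0.48 (0 to 3.11, median 0.53), and Copg2, next to Mest, at 5.79 (3.68 to 25.8, median 10.3). Blcap was the lowest of the 7 WT embryos, with a lower value in R442Q.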
